A study of Sus scrofa with 6 samples.

Results

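The microRNAs (miRNAs) of the miR-148 and miR-152 family were measured in black and white skin of Xiang pigs, a dwarf breed of domestic pig (Sus scrofa). The family was taken by name as ssc-miR-148a-3p, ssc-miR-148a-5p, ssc-miR-148b-3p, ssc-miR-148b-5p and ssc-miR-152, which are 5 of the 898 miRNAs in the table. The black group was 3 small RNA libraries of skin labelled black (S03, S04 and S05), and the white group was 3 libraries of skin labelled white (S02, S06 and S07). Tissue, breed and storage in a preservative at low temperature are the same in both groups, and the labels give no age, sex, body site or animal, so p-values reflect the spread among these libraries alone, which may be technical.

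A miRNA is cut from a hairpin precursor whose 5p and 3p arms can each give a mature product, and it lowers transcripts that pair with its seed, a short stretch near its 5′ end. The 3p products of miR-148a, miR-148b and miR-152 share a seed and therefore many predicted targets. Known targets in human cells include the maintenance DNA methyltransferase DNMT1 and, for miR-148 in human melanoma cells, MITF, the transcription factor that switches on pigment genes such as TYR and TYRP1 in melanocytes. Skin is a mixture of keratinocytes, fibroblasts, vessels, blood cells and few melanocytes, and in such bulk samples fewer cells of a type and less RNA per cell cannot be told apart.

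Values are RPM, reads scaled to a library total of 1e+06 listed miRNA reads, from libraries of 6454685 to 10165949 reads. Per library, 227 to 440 reads fell on the scarcest member, ssc-miR-148b-5p, and 618473 to 1064695 on the most abundant, ssc-miR-148a-3p. The 5 members passed the filter on low counts, as did 454 of 898 miRNAs. Of the keratinocyte and epithelial markers, ssc-miR-205, an epithelial miRNA, measured 11483 to 16639 RPM in black skin and 14898 to 22514 RPM in white. Of that list, 2 of 7 names were analysed here, ssc-miR-205 and ssc-miR-429. The fibroblast and mesenchymal markers summed to 18791 to 26118 RPM in black skin and 21134 to 32471 RPM in white, with the 3p product of miR-199b, whose values equal those of miR-199a in all 6 libraries, left out of the sum.

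The 3 precursors lie on different chromosomes, each near an NFE2-related gene. In Sscrofa11.1, MIR148A lies on chromosome 18 at 46415213 to 46415280, outside protein-coding genes, 165 kb from NFE2L3 on one side and 667 kb from NPVF on the other. MIR148B lies on chromosome 5 at 19530990 to 19531069, within the span of COPZ1, which encodes a subunit of the COPI vesicle coat. MIR152 lies on chromosome 12 at 24292249 to 24292328, within the span of COPZ2, which encodes the paralogous subunit. Exons and introns cannot be told apart in the gene spans used. NFE2-related genes encode leucine zipper transcription factors, with NFE2 29.2 kb from MIR148B and NFE2L1 11.05 kb from MIR152. The chromosomes of MIR148B and MIR152 also carry the HOXC and HOXB clusters, groups of genes that set position along the body axis. Only HOXB and HOXC genes were searched for, so whether the chromosome of MIR148A carries another HOX cluster was not examined. The gap to the nearest gene of the cluster is 263 kb for MIR148B (HOXC4) and 493 kb for MIR152 (HOXB1).

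**Figure D1:**
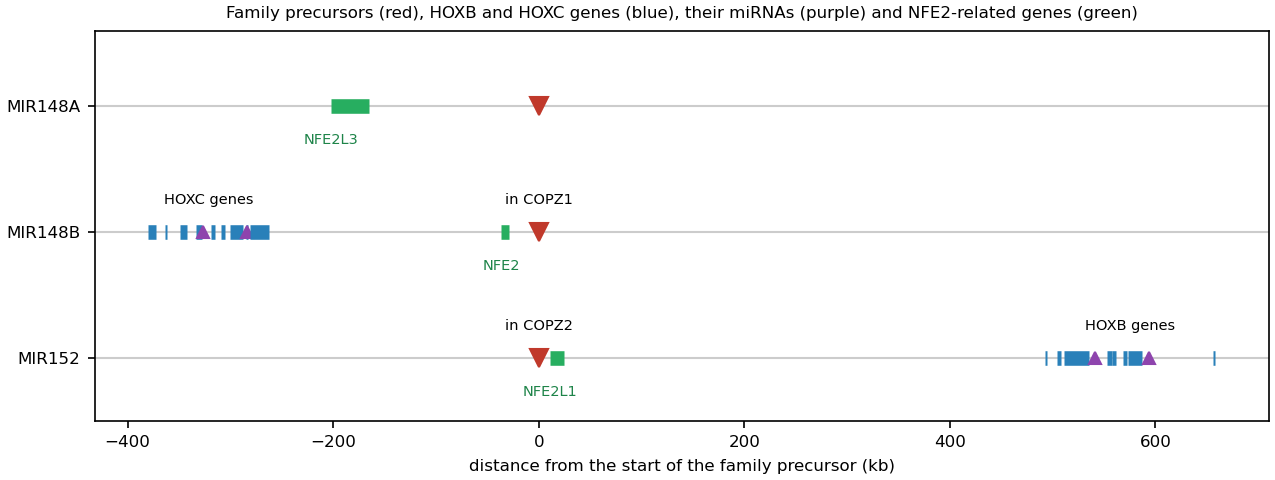
Position of each family precursor (red triangle, at 0) relative to the NFE2-related genes (green) and, for MIR148B and MIR152, the HOXC and HOXB genes (blue) and the miRNA precursors within those clusters (purple), in kb along Sscrofa11.1. The nearest gene of the cluster lies 263 kb from MIR148B and 493 kb from MIR152. Genes of other HOX clusters were not searched for and are not drawn.

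No member of the family passed the test between black and white skin. The products that share the seed had higher means in black skin, 1.28-fold for ssc-miR-148a-3p, 1.29-fold for ssc-miR-152 and 1.18-fold for ssc-miR-148b-3p. The scarcer 5p arms were close to equal in the groups. By limma on log2(RPM + 1) with Benjamini-Hochberg adjustment, 0 of 5 members were called at an adjusted p under 0.05, against 32 of all 454 tested miRNAs (7.05%; 18 higher, 3.96%, and 14 lower, 3.08%), and 0 of the 5 had an unadjusted p under 0.05. Count models on the recovered reads, edgeR and DESeq2, and limma-voom also called 0 of 5. Leaving out 1 library at a time gave 7 (without S05 or S06) to 41 (without S02) calls over all miRNAs and 0 in the family each time.

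ssc-miR-148a-3p, one of the most abundant miRNAs of this skin, was even across the black libraries and uneven across the white ones. It measured 137453 (S03), 125136 (S04) and 119219 RPM (S05) in black skin and 84720 (S02), 144299 (S06) and 69429 RPM (S07) in white skin. The white library S06 was above every black library, and S02 and S07 were below every one, so the groups overlapped. Of all listed miRNAs it ranked first in S03, S04 and S06, second in S05, and it had rank 4 in S02 and rank 5 in S07. The group means were 127269 ± 9303 RPM in black skin and 99483 ± 39558 RPM in white (SD, n = 3 each). The highest and lowest black library differed 1.15-fold, and the highest and lowest white library 2.08-fold. Black minus white came to 0.42 in log2(RPM + 1) (standard error 0.25, 95% interval -0.14 to 0.99; limma, adjusted p = 0.327). The value rested on the white libraries: without S06 it was 0.73 (limma, adjusted p = 0.108) and without S07 it was 0.20 (adjusted p = 0.640).

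ssc-miR-152 was the one member whose groups did not overlap. It measured 5027 (S03), 5652 (S04) and 5090 RPM (S05) in black skin and 4729 (S02), 3237 (S06) and 4253 RPM (S07) in white skin. Every black library was above every white one, by a narrow gap between S03 and S02. Groups without overlap were found for 124 of the 454 tested miRNAs (27.3%), so 1 of 5 members is near the background share. The means were 5256 ± 344 RPM in black skin and 4073 ± 762 RPM in white (SD, n = 3 each; two-sided exact permutation p = 0.1, the smallest that 3 against 3 allows). The difference of 0.38 (standard error 0.18, 95% interval -0.03 to 0.79) missed the threshold (limma, adjusted p = 0.224). It was 0.23 without S06 (adjusted p = 0.516) and 0.50 without S02 (adjusted p = 0.120). The table gives this row no arm suffix, and it was read as the product that shares the seed, the dominant arm of this hairpin in human.

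ssc-miR-148b-3p measured 2352 (S03), 2869 (S04) and 2188 RPM (S05) in black skin and 2539 (S02), 1770 (S06) and 1957 RPM (S07) in white skin. The white S02 was above 2 black libraries, while S06 and S07 were below all of them. Means were 2470 ± 355 RPM in black skin and 2089 ± 401 RPM in white (SD, n = 3 each), a difference of 0.25 (standard error 0.20, 95% interval -0.19 to 0.69; limma, adjusted p = 0.496). Leaving out S06 gave 0.14 (limma, adjusted p = 0.795). The intervals of ssc-miR-148a-3p, ssc-miR-152 and ssc-miR-148b-3p include 0 and also differences near 0.7 to 1 on the log2 scale, so these libraries cannot show whether a difference of such a size is present.

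**Figure D2:**
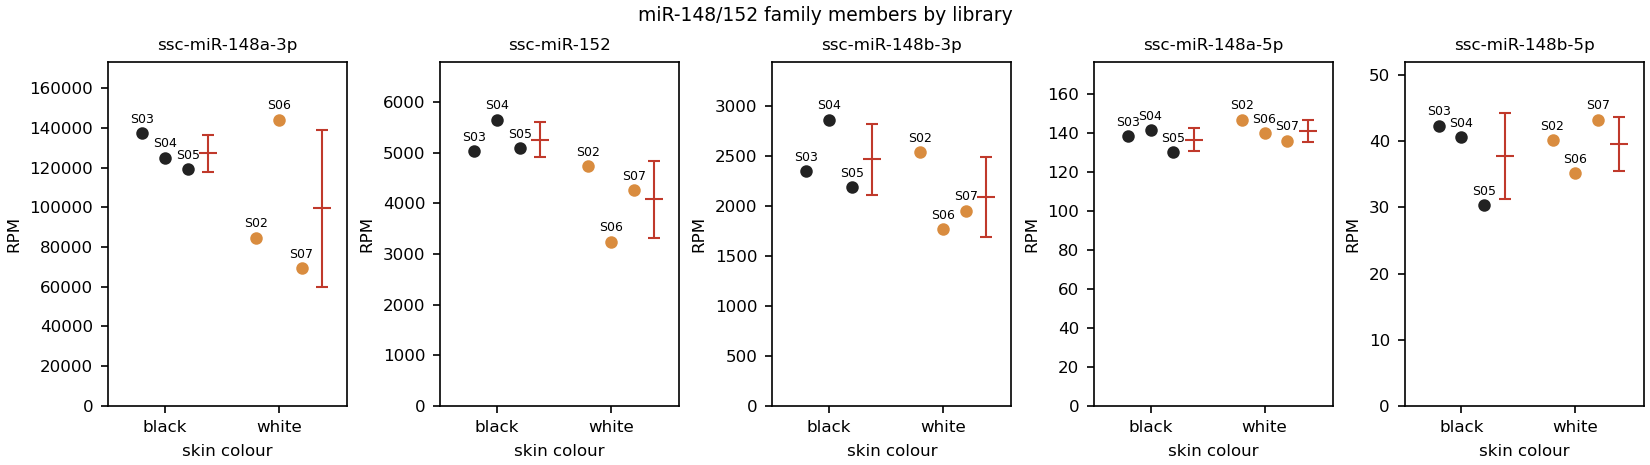
RPM of the 5 family members in the 3 black and 3 white libraries (points, labelled), with the mean ± SD of each group in red beside them, on axes that start at 0. The white library S06 is the highest of all 6 for ssc-miR-148a-3p and the lowest for ssc-miR-152 and ssc-miR-148b-3p, and the ssc-miR-148a-5p points lie between 130 and 147 RPM.

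ssc-miR-148a-5p, the scarce arm of the most abundant member, was almost level across the 6 libraries. It measured 138 (S03), 141 (S04) and 130 RPM (S05) in black skin and 147 (S02), 140 (S06) and 136 RPM (S07) in white skin. The groups overlapped, with means of 137 ± 5.72 RPM in black skin and 141 ± 5.49 RPM in white (SD, n = 3 each; difference -0.05, standard error 0.19, 95% interval -0.48 to 0.39; limma, adjusted p = 0.911). Its coefficient of variation over the 6 libraries, 4.0%, was the lowest of the 247 tested miRNAs with a mean of at least 10 RPM, whose median was 27.4%. Counting error alone gives 3.04% at its 904 to 1384 reads per library. The 3p arm of the same hairpin had a coefficient of variation of 26.3%, where counting error gives 0.109%.

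ssc-miR-148b-5p, the scarcest member, measured 42.3 (S03), 40.6 (S04) and 30.3 RPM (S05) in black skin and 40.1 (S02), 35.2 (S06) and 43.3 RPM (S07) in white skin. The lowest value was in the black S05 and the highest in the white S07. Means were 37.8 ± 6.52 RPM in black skin and 39.5 ± 4.09 RPM in white (SD, n = 3 each; difference -0.07, standard error 0.26, 95% interval -0.65 to 0.50; limma, adjusted p = 0.896). The sign turned without S05, to 0.07 (adjusted p = 0.901), so no direction is given for this arm.

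**Figure D3:**
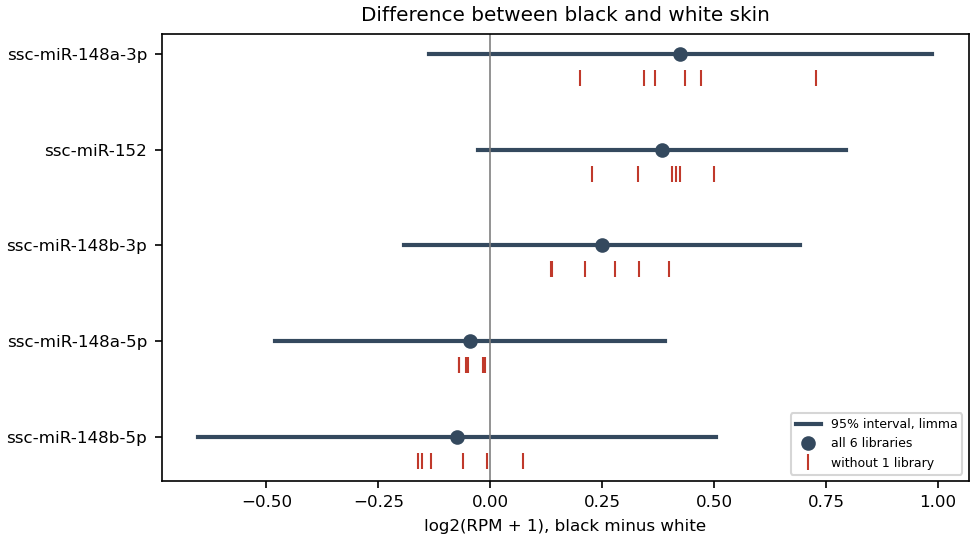
Difference between black and white skin for each member on the log2(RPM + 1) scale (blue point) with its 95% interval from limma (blue line), and the value after leaving out each library in turn (red ticks). Every interval includes 0, and the ticks of ssc-miR-148a-3p run between 0.20 (without S07) and 0.73 (without S06).

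Both hairpins gave far more of the 3p than of the 5p product, and neither arm ratio passed the test between the groups. The miR-148a ratio was 994 (S03), 885 (S04) and 915 (S05) in black skin and 576 (S02), 1030 (S06) and 510 (S07) in white skin. S06 stood with the black libraries, and S02 and S07 were lower than all others. Averaged over the 6 libraries, the log2 ratio of this hairpin was the farthest from 0 of the 41 hairpins with both arms tested, while its range across the white libraries ranked 9 of 41. It averaged 9.85 ± 0.09 in black and 9.38 ± 0.54 in white skin (SD, n = 3 each), a difference of 0.47 (standard error 0.37, 95% interval -0.32 to 1.26; limma over the 41 pairs, adjusted p = 0.398). Without S06 the difference was 0.78 (adjusted p = 0.0630). Of the 41 pairs 5 were called (12.2%), with 0 of the 2 in the family.

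The miR-148b ratio was 55.6 (S03), 70.6 (S04) and 72.2 (S05) in black skin and 63.3 (S02), 50.3 (S06) and 45.2 (S07) in white skin. S02 was above the black S03, so the groups overlapped. The log2 ratio averaged 6.0 ± 0.21 in black and 5.68 ± 0.25 in white skin (SD, n = 3 each; difference 0.32, standard error 0.25, 95% interval -0.20 to 0.84; limma, adjusted p = 0.385).

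Summed over the 3 products that share the seed, the family held 14.5% (S03), 13.4% (S04) and 12.7% (S05) of the miRNA reads in black skin. In white skin it held 9.20% (S02), 14.9% (S06) and 7.56% (S07). The sum averaged 13.5 ± 0.924% in black and 10.6 ± 3.87% in white skin (SD, n = 3 each), with overlap. Nearly all of it was ssc-miR-148a-3p, at 93.6% to 94.9% of the sum in black and 91.8% to 96.7% in white skin. ssc-miR-152 made up 3.47% to 4.23% in black and 2.17% to 5.62% in white skin, and ssc-miR-148b-3p made up the rest.

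The 2 scarcer seed products kept a near-constant ratio to each other, whereas ssc-miR-148a-3p varied apart from them in white skin. The ratio of ssc-miR-152 to ssc-miR-148b-3p was 2.14 (S03), 1.97 (S04) and 2.33 (S05) in black skin and 1.86 (S02), 1.83 (S06) and 2.17 (S07) in white skin. The ratio of ssc-miR-148a-3p to ssc-miR-152 was 27.3 (S03), 22.1 (S04) and 23.4 (S05) in black skin and 17.9 (S02), 44.6 (S06) and 16.3 (S07) in white skin. The white S02 and S07 were close to each other in this ratio. S06 combined the highest ssc-miR-148a-3p with the lowest ssc-miR-152 and ssc-miR-148b-3p of the 6 libraries. In log2 profiles centred over the 6 libraries, ssc-miR-152 and ssc-miR-148b-3p differed by a root mean square of 0.12, against 0.47 and 0.44 for ssc-miR-148a-3p against each of them. The larger values include S06 and were not computed without it. These 3p products are similar beyond the seed, so reads could be split between them in a way the values do not show.

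For each of the 3 log2 ratios among these members the black and white libraries overlapped. The difference was 0.18 for ssc-miR-148a-3p over ssc-miR-148b-3p, 0.04 for ssc-miR-148a-3p over ssc-miR-152 and -0.13 for ssc-miR-148b-3p over ssc-miR-152. Two-sided exact permutation tests gave p = 0.8, 1 and 0.3, or 1, 1 and 0.9 after adjustment over the 3 pairs. As 0.1 is the smallest unadjusted p possible, no ratio could have passed 0.05. The sign of both ratios with ssc-miR-148a-3p turned when single libraries were left out. The ratio over ssc-miR-148b-3p gave -0.05 without the white S02 and -0.01 without the white S07. The ratio over ssc-miR-152 gave -0.05 without the black S03, -0.16 without the white S02 and -0.22 without the white S07.

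**Figure D4:**
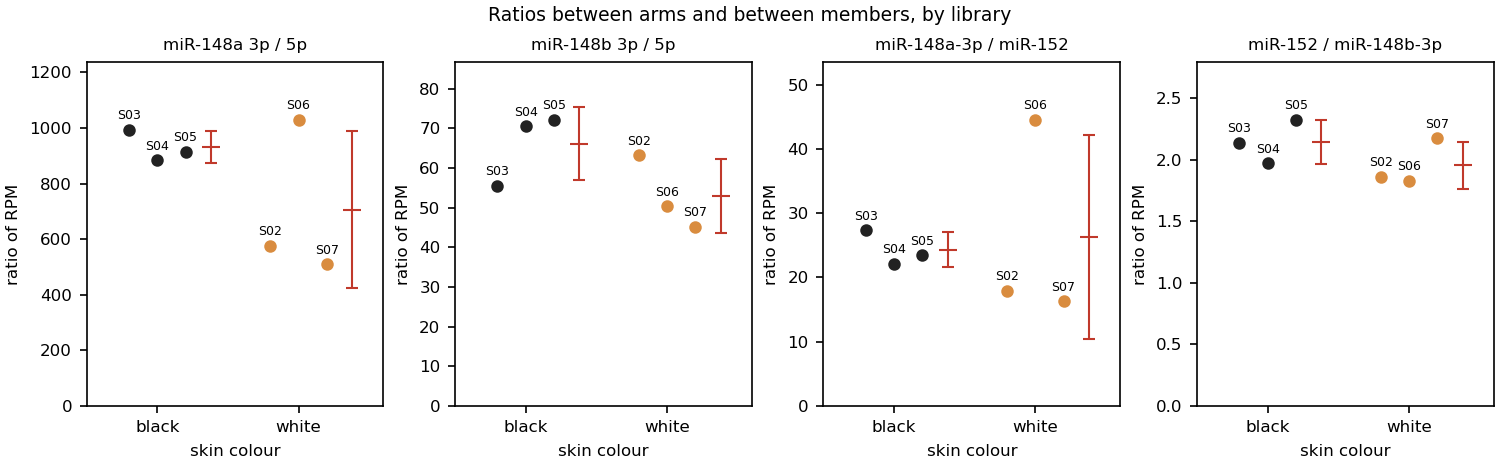
Ratios of RPM between the arms of miR-148a and of miR-148b, between ssc-miR-148a-3p and ssc-miR-152, and between ssc-miR-152 and ssc-miR-148b-3p, per library (labelled points) with the mean ± SD in red, on axes that start at 0. S06 stands at 1030 and 44.6 for the ratios with ssc-miR-148a-3p on top, while S02 and S07 are the lowest, and the ratio of ssc-miR-152 to ssc-miR-148b-3p stays between 1.83 and 2.33.

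In mean RPM over the 6 libraries the order of the family was ssc-miR-148a-3p, ssc-miR-152, ssc-miR-148b-3p, ssc-miR-148a-5p and ssc-miR-148b-5p, at ranks 2, 24, 37, 105 and 150 of the 280 named miRNAs. This order was the same in each of the 6 libraries. ssc-miR-21, an abundant miRNA of many tissues, was just above ssc-miR-148a-3p on average and above it in 3 of 6 libraries. ssc-miR-27b-3p was just below it on average and above it in 2 of 6 libraries. ssc-miR-152 stood between ssc-miR-23b, which was above it in 6 of 6 libraries, and ssc-miR-30a-5p, which was above it in 3. Around ssc-miR-148b-3p, ssc-miR-103 was higher in 4 of 6 libraries and ssc-miR-145-5p in 2. ssc-miR-148a-5p stood between ssc-miR-181b and ssc-miR-27b-5p, and ssc-miR-148b-5p between ssc-miR-15a and ssc-miR-92b-3p. Of these 10 neighbours ssc-miR-181b was called, at 87.8 ± 9.68 RPM in black skin and 192.6 ± 51.2 RPM in white (SD, n = 3 each; difference -1.09; limma, adjusted p = 0.0329), and it was not called without S03, S04, S05, S06 or S07, with adjusted p up to 0.116.

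**Figure D5:**
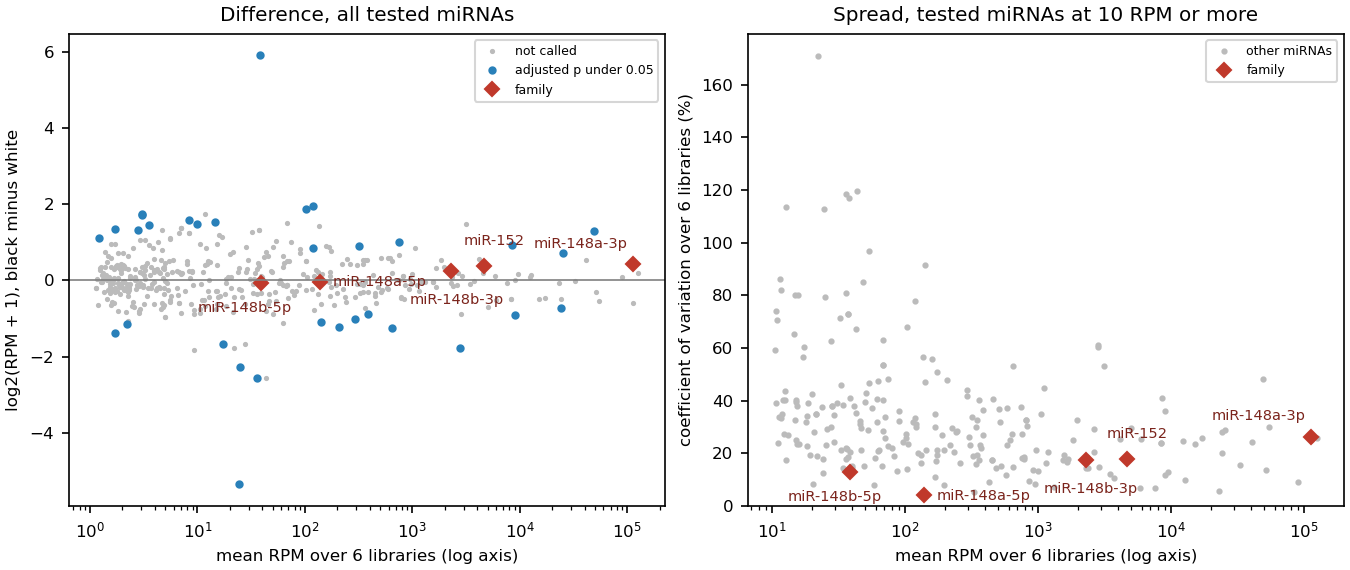
Left, difference between black and white skin on the log2(RPM + 1) scale against mean RPM (log axis) for the 454 tested miRNAs, with the 32 called ones in blue and the family in red; right, coefficient of variation over the 6 libraries against mean RPM (log axis) for the 247 at 10 RPM or more. No family member is among the called miRNAs, and ssc-miR-148a-5p has the lowest spread at 4.0%.

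Among 182 named miRNAs outside the family with at least 10 RPM, the profiles closest to ssc-miR-148a-3p over the 6 libraries were those of ssc-miR-96-5p, ssc-miR-331-5p and ssc-miR-24-1-5p. Their root mean square differences from it were 0.19, 0.22 and 0.23 on the centred log2 scale, against a median of 0.53 over the 182. ssc-miR-96-5p, a miRNA of sensory and epithelial cells, measured 695.5 (S03), 682 (S04) and 689 RPM (S05) in black skin and 539 (S02), 760.2 (S06) and 518 RPM (S07) in white skin, with S06 highest and S02 and S07 lowest as for ssc-miR-148a-3p. For ssc-miR-148b-3p the closest were ssc-miR-628 (0.09), ssc-miR-1839-5p (0.10) and ssc-miR-30e-3p (0.13), against a median of 0.40. For ssc-miR-152 they were ssc-miR-628 (0.10), ssc-miR-374a-3p (0.11) and ssc-miR-340 (0.13), against a median of 0.42, and S06 was the lowest library for these 3 as for ssc-miR-152. All were chosen for likeness over these same libraries, so shared high or low libraries follow from the choice. ssc-miR-340, which acts on MITF in human melanoma cells, measured 410.5 (S03), 416 (S04) and 465 RPM (S05) in black skin and 375 (S02), 240.8 (S06) and 289 RPM (S07) in white skin, with no overlap (difference 0.53; limma, adjusted p = 0.154).

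Other miRNAs reported to act on MITF or its transcript in some species, or tied to it, were not called by limma either. The list holds 12 names outside the family, of which 8 were analysed here, with 9 products. By limma 0 of the 9 were called. Of them 6 had an unadjusted p under 0.05, ssc-miR-182 as lower and the others as higher in black skin, against 116 of all 454 (25.6%). edgeR and limma-voom called 0. DESeq2 called 2 as higher, ssc-miR-101 and ssc-miR-204, against 34 called as higher of all 454. Leaving out S02 called 3 as higher, ssc-miR-101, ssc-miR-145-3p and ssc-miR-26a, against 23 of all 482 miRNAs tested in that fit. The median difference of the 9 was 0.53, against 0.00 over all tested miRNAs, and 7 values were above 0. Groups did not overlap for 5 of the 9, all higher in black skin, against 61 of all 454 (13.4%) in that direction.

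The most abundant of them was ssc-miR-26a, also known to act on the histone methyltransferase EZH2. It averaged 47780 ± 1186 RPM in black skin and 33990.2 ± 10098 RPM in white (SD, n = 3 each; difference 0.53; limma, adjusted p = 0.148). ssc-miR-182, of the same sensory and epithelial cluster as miR-96, averaged 4884 ± 751 RPM in black skin and 7040.1 ± 1293 RPM in white (SD, n = 3 each; difference -0.52; limma, adjusted p = 0.138). ssc-miR-101, another miRNA that acts on EZH2, measured 3850 (S03), 4813 (S04) and 4516 RPM (S05) in black skin and 3491 (S02), 809 (S06) and 1355 RPM (S07) in white skin. S02 stood near the black libraries and S06 and S07 far below them (difference 1.48; limma, adjusted p = 0.0804), and the difference was 2.06 without S02 (adjusted p = 0.00209). ssc-miR-204, a MITF-linked miRNA of pigmented epithelium, averaged 116 ± 24.6 RPM in black skin and 64.5 ± 6.68 RPM in white (SD, n = 3 each; difference 0.82; limma, adjusted p = 0.0804). ssc-miR-204 is also on the melanocyte marker list. Of the 5 tested products of that list 0 rose and 1 fell, against 7.05% called over all tested miRNAs, with a median difference of -0.37. The product that fell was ssc-miR-221-3p, at 374 ± 46.0 RPM in black skin and 912 ± 272 RPM in white (SD, n = 3 each; difference -1.24; limma, adjusted p = 0.0318), and it was not called without S03, S04, S05, S06 or S07 (adjusted p up to 0.108). ssc-miR-222, of the same seed family, gave -0.73 (limma, adjusted p = 0.152). Of the 5 names on the melanocyte list 4 were analysed here, all but miR-211. The list summed to 2908 to 4611 RPM in black skin and 3308 to 5157 RPM in white, with overlap. In S05 and S07, which had the highest sums, ssc-miR-146a-5p alone gave 3669 and 3540 RPM. Whether the list follows the number of melanocytes was not tested. ssc-miR-204, ssc-miR-146a-5p, ssc-miR-222, ssc-miR-145-3p and the called ssc-miR-221-3p were named after their values were seen.

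Of miRNAs reported to act on DNA methyltransferases, targets shared with this family, limma called 3 of 10 tested products as higher in black skin and 0 as lower, against 3.96% and 3.08% of all tested miRNAs. ssc-miR-143-3p averaged 69866 ± 10297 RPM in black skin and 28574 ± 3838 RPM in white (SD, n = 3 each; difference 1.29; limma, adjusted p = 0.00314). The others were ssc-miR-126-3p (0.71) and ssc-miR-126-5p (0.89; limma, adjusted p = 0.0423 for both), arms of the same hairpin that are counted separately here. The 3 called products are also markers of smooth muscle and endothelium. The smooth muscle list summed to 64998 to 84502 RPM in black skin and 26728 to 34192 RPM in white, with 1 of 4 products called, against 7.05% of all tested miRNAs. The endothelial list summed to 28989 to 35451 RPM in black skin and 17322 to 23899 RPM in white, with 2 of 2 called, and the part of these cells in the result was not tested. edgeR and limma-voom called 1 of the 10, ssc-miR-143-3p, as did leaving out S03, S04, S05 or S06. DESeq2 called 4, of which ssc-miR-143-3p, ssc-miR-126-5p and ssc-miR-101 were higher and ssc-miR-342 was lower in black skin (difference -0.93; DESeq2, adjusted p = 0.0275). Over all 454 tested miRNAs edgeR called 30, limma-voom 31 and DESeq2 53 (34 higher, 19 lower). By limma ssc-miR-342, named after its values were seen, gave -0.88 (adjusted p = 0.0994). ssc-miR-29a, of a family that acts on the de novo methyltransferases, averaged 3700.5 ± 334 RPM in black skin and 3737 ± 529 RPM in white (SD, n = 3 each; difference -0.01; limma, adjusted p = 0.976).

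miRNAs made within the HOX clusters on the chromosomes of MIR148B and MIR152 fell in black skin, whereas the family members from these chromosomes gave values around or above 0. The HOX list of 6 tested products also holds ssc-miR-10b from chromosome 15 and ssc-miR-196b-5p, which was not placed on a chromosome. In this whole list 5 of 6 products fell, against 3.08% of all tested miRNAs, with a median difference of -1.72 beside 0.00 over all. On chromosome 12 ssc-miR-10a-5p, whose precursor lies 541 kb from MIR152, fell by 1.78 on the log2 scale, to 1266 ± 151 RPM in black against 4336 ± 513 RPM in white (SD, n = 3 each; limma, adjusted p = 0.000371). Its other arm, ssc-miR-10a-3p, fell by 1.67 (limma, adjusted p = 0.0171), beside 0.38 for ssc-miR-152. ssc-miR-196a, with 1 precursor on chromosome 12 and 1 on chromosome 5, fell by 2.57 (limma, adjusted p = 0.000371). On chromosome 5 ssc-miR-615, whose precursor lies 284 kb from MIR148B, fell by 1.38 (limma, adjusted p = 0.0324), beside 0.25 for ssc-miR-148b-3p and -0.07 for ssc-miR-148b-5p. ssc-miR-196b-5p, for which no precursor position was matched, had 1 (S03), 1 (S04) and 3 reads (S05) in black skin and 453 (S02), 286 (S06) and 409 reads (S07) in white skin (limma, adjusted p = 4.5e-06), and ssc-miR-10b, from chromosome 15, gave -0.49 (limma, adjusted p = 0.154). Without S03, S05 or S06 the calls of ssc-miR-10a-3p and ssc-miR-615 were lost (adjusted p up to 0.116), and that of ssc-miR-615, with 12 reads in black and 67 in white skin, also without S04 or S07. The differences between these miRNAs and the family members were not tested.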

How the data were processed

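Small RNA of skin was sequenced in 6 libraries, and the labelled skin colour set the groups. The authors deposited 1 table in RPM, in which each column sums to 1e+06, a unit read from the values. Bowtie and Sscrofa11.1 are named, without a role, in the submitters' processing notes, and the counting tool and miRNA database are not stated in the sources used here. All values (100%) came out as whole reads (tolerance 0.001), 1 read being worth 0.0984 to 0.155 RPM. Reads after PCR are not independent molecules, so counting errors cover counting only. As shares of a total, RPM of 1 miRNA move when an abundant one changes.

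The main test was limma 3.58.1 (R 4.3.3) fitted to log2(RPM + 1) with its intensity trend for black minus white, and p-values were Benjamini-Hochberg adjusted over the 454 miRNAs kept by edgeR's filterByExpr (minimum count 10, minimum total 15). Arm ratios were fitted likewise over 41 hairpins. Single ratios had two-sided exact permutation tests. On simulated libraries of 454 miRNAs for this comparison limma found 41.2% of the 2-fold changes and 90.4% of the 4-fold ones, and 2.9% of its calls were false. In them 200 miRNAs were changed, evenly up and down. The most abundant miRNAs, ssc-miR-148a-3p among them, were kept unchanged so that library totals did not shift. These shares hold for that setting only. Alternatives used edgeR 4.0.16, DESeq2 1.42.0 and limma-voom on the recovered reads, other scalings, filters and pseudocounts, and each library left out. Chi-square tests of the reads between libraries gave at least 249 per degree of freedom, so none was treated as a duplicate. No family row was identical to another.

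Members and lists were chosen with earlier results of these data known. Named are all members, the 3 closest profiles to each seed product, abundance neighbours, the 3 most abundant and called members of the MITF and DNA methyltransferase lists and the tested HOX-cluster miRNAs. Matches to precursors used the RefSeq gene table for build Sscrofa11.1, where all 3 were found.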

Additional observations from a re-analysis of the deposited data

How the results depend on the processing

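No paired analysis was possible because the library codes in the labels are not shared between the groups. In 13 other settings and 6 fits without 1 library, 0 of 5 members were called. The other settings gave 0.33 to 0.47 for ssc-miR-148a-3p, 0.29 to 0.43 for ssc-miR-152, 0.16 to 0.29 for ssc-miR-148b-3p, -0.13 to -0.00 for ssc-miR-148a-5p and -0.16 to -0.03 for ssc-miR-148b-5p. Without 1 library they were 0.20 to 0.73, 0.23 to 0.50, 0.14 to 0.40, -0.07 to -0.01 and -0.16 to 0.073. For the arm ratios these fits gave 0.27 to 0.78 (miR-148a) and 0.22 to 0.46 (miR-148b), with no call. The ratio of ssc-miR-148a-3p ran from -0.054 to 0.59 over ssc-miR-148b-3p and from -0.22 to 0.50 over ssc-miR-152.

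Over all miRNAs the 32 calls became 19 without the trend and 53 with DESeq2, and 7 to 41 without 1 library. The MITF list had 2 calls with DESeq2 and 0 to 3 without 1 library. The DNA methyltransferase list had 1 without the trend, with edgeR and with limma-voom, 4 with DESeq2 (3 higher, 1 lower), and 1 to 3 without 1 library, and the HOX list 3 to 5. Signs of uncalled neighbours turned. ssc-miR-29a gave 0.0036 with upper-quartile factors, 0.036 with ssc-miR-148a-3p out of the total and -0.12 to 0.087 without 1 library. ssc-miR-1839-5p gave -0.0088 with predicted miRNAs left out and -0.072 to 0.22 without 1 library. ssc-miR-15a gave -0.0079 with edgeR, -0.040 with DESeq2 and -0.14 to 0.54 without 1 library. ssc-miR-331-5p ran from -0.025 to 0.29 and ssc-miR-103 from -0.16 to 0.082. Of 19 alternatives each, ssc-miR-126-3p lost its call in 12, ssc-miR-126-5p in 9, ssc-miR-181b in 7 and ssc-miR-221-3p in 6, and ssc-miR-27b-5p gained one in 7. The causes were not tested. Depth does not limit the abundant members, while 227 to 440 reads limit ssc-miR-148b-5p to a counting error of 5.82%.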
